A study of Mus musculus with 5 samples.

Results

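The cornified envelope is the protein shell that replaces the plasma membrane of a keratinocyte as it dies at the skin surface. A set of 10 genes of this shell and of the upper epidermal layers was followed here in mammary epithelial preparations: Ivl, Lor, Sprr1a, Sprr1b, Flg, Krtdap, Sbsn, Wfdc21, Dsg1a and Calml3. They were 10 of the 22180 genes that have a probe set annotated to them alone. They were chosen by measured values, the high signals of Wfdc21 and other epidermal genes on 1 wild-type array, so their levels across the arrays are a description and carry no test. Each of the 10 has 1 probe set annotated to it alone, and that probe set is used.

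The samples were mammary epithelial cells of 4-week-old mice on a congenic FVB/NJ background. Both groups carried floxed Mmp14 alleles, written Mmp14(f/f), and the 2 conditional knockouts, MMTV-Cre+/Mmp14(f/f), also carried Cre under the MMTV promoter, which is active in mammary and some other epithelia. The 3 wild-type samples were littermates without Cre, so no sample has unmodified Mmp14 alleles. The cells were inguinal gland aggregates, freed of the lymph node before collagenase digestion and separated from stroma by centrifugation, so any cell type that pellets with the aggregates can be in them. The labels call the samples biological replicates without saying if a sample is 1 mouse or pooled mice. All p-values therefore reflect the scatter among these 5 samples, which may be technical.

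Values are log2 signals, with array medians from 4.24 to 4.29. Detection calls were not used, and signals near those medians may be background. Mmp14 itself read 7.98 and 7.28 on the knockout arrays and 8.15, 8.67 and 7.75 on the wild-type arrays, so the groups overlapped and this probe set does not separate the labels; whether its probes lie in the floxed exons is not known here. Markers of the labelled cell type read high on all 5 arrays: the luminal keratin Krt8 ranged from 11.3 to 11.5, the basal keratin Krt14 from 8.96 to 9.29 and the myoepithelial actin Acta2 from 9.45 to 10.05. In such bulk samples fewer cells of a type and less RNA per cell cannot be told apart.

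Stratified epidermis builds its barrier in layers. Basal cells carry Krt5 and Krt14, the spinous layer switches to Krt1 and Krt10, and the granular layer makes involucrin, loricrin, small proline-rich proteins and filaggrin, which transglutaminases and proteases then crosslink and process. Many of these genes lie side by side in the epidermal differentiation complex, and AP-1 transcription factors are known regulators of several of them. The ducts of the mammary gland are a bilayer of luminal and myoepithelial cells and do not normally cornify.

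Promoters are shown for 2 pairs, because the members of each pair read differently on these arrays. Sprr1a and Sprr1b are paralogues of the differentiation complex, and Krtdap and Sbsn lie on either side of Dmkn in a cluster of secreted keratinocyte proteins. The sequences are the 250 bases before the RefSeq transcript start in GRCm38.p6, the reference of another strain than FVB/NJ, read 5′ to 3′ on the strand of the gene. Capitals mark TGANTCA, an AP-1 motif loosened to any middle base (N), and the TATA box TATAAA. The windows are chr3:92485882-92486131 on the minus strand for Sprr1a, chr3:92438780-92439029 on the minus strand for Sprr1b, chr7:30787655-30787904 on the plus strand for Krtdap and chr7:30751221-30751470 on the plus strand for Sbsn.
Sprr1a: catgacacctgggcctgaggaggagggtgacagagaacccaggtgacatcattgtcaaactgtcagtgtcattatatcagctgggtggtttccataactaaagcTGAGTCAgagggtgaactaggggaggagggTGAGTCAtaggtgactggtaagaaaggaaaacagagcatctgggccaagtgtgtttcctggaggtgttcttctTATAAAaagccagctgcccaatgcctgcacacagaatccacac
Sprr1b: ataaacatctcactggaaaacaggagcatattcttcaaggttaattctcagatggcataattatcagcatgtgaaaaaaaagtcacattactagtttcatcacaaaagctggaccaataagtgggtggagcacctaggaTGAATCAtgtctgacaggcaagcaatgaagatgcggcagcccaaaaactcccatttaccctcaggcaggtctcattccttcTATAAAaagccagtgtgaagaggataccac
Krtdap: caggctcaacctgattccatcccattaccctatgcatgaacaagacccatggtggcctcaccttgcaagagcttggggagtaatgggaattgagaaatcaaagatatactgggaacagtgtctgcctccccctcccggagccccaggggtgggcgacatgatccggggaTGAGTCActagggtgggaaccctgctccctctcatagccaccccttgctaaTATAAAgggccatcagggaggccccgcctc
Sbsn: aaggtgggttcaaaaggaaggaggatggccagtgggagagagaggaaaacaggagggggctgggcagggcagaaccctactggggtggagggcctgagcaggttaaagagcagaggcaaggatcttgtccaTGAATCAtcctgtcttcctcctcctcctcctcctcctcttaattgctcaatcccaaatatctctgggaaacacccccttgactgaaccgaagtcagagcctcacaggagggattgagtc

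Both motifs and the CACCC box CCNCACCC were searched on both strands, and the RefSeq table held promoters for 7 of the 10 genes. TGANTCA was found in 7 of the 7, against 6.75% of all 32851 promoters in the table. The middle base was A in Flg, Sprr1b and Sbsn, and G or C in Lor, Krtdap, Sprr1a and Ivl. The matches began 146 and 116 bases before the start of Sprr1a, 111 before Sprr1b, 81 before Krtdap and 119 before Sbsn. TATAAA was found in 6 of the 7 (12.4% of all promoters), with none in the window of Sbsn. CCNCACCC was found in 1 of the 7, that of Ivl (14.9% of all promoters). A match is a description of letters and not of a bound site, and both the genes that read high on 1 array and those that read high on all 5 had one.

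Of the 10 genes, 9 read highest on the array of wild type 1, where 15.5% of all 22180 genes did. For 3 of them, Krtdap, Wfdc21 and Sprr1b, that array stood 1 log2 unit or more above the next highest array, which 31 genes (0.14%) did on this array. The values chose the genes, and nothing is read from these shares.

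The proteins laid down first in the envelope are involucrin and the small proline-rich cross-bridging proteins. Ivl, involucrin, read 3.66 on both knockout arrays, 4.22 on wild type 1 and 3.66 on wild type 2 and 3. Its values were equal on 4 arrays, so only wild type 1 stood apart, by 0.57. That value too was below the median of its array (4.26), where signals may be background. Sprr1b read 3.87 and 4.12 in the knockouts and 6.25, 4.12 and 4.12 in the wild types. Wild type 1 was 4.37-fold above the next array on the linear scale, and the other wild types lay among the knockouts. Sprr1a, its paralogue, which is also induced in stressed cells outside the skin, read 10.1 and 8.99 in the knockouts and 10.5, 9.82 and 10.1 in the wild types. Sprr1a was thus at 8.99 or above on every array, wild type 1 led by only 0.42, and knockout 2 was lowest. The 2 transcripts are similar in sequence, and how far their probes share signal was not tested.

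Loricrin and filaggrin come later, in the granular layer. Lor, the glycine-rich main protein of the mature envelope, read 3.54 and 3.70 in the knockouts and 4.20, 3.50 and 3.70 in the wild types. Flg, whose product bundles keratin filaments, read 3.36 and 3.42 in the knockouts and 4.12, 3.40 and 3.40 in the wild types. For both genes wild type 1 was above the other 4 arrays, by 0.49 for Lor and 0.70 for Flg, and the other wild types lay within or beside the knockout range. Even on wild type 1 both read below that array's median of 4.26, where signals may be background.

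Krtdap, Wfdc21 and Sbsn encode secreted proteins of the upper layers, and wild type 1 led by more than 2 log2 units for the former pair but not for Sbsn. Krtdap, a keratinocyte differentiation-associated peptide, read 4.73 and 4.31 in the knockouts and 8.83, 4.40 and 3.93 in the wild types. Wild type 1 was 17.1-fold above the next array, and the remaining wild types were one inside and one below the knockout values. Wfdc21, a small secreted protein with a whey acidic protein domain, read 4.27 and 4.33 in the knockouts and 7.29, 4.37 and 4.37 in the wild types. Wild type 1 was 7.58-fold above the next array, and all wild types were above both knockouts, the lower ones by 0.04 or more. Sbsn, suprabasin, read 7.30 and 7.14 in the knockouts and 7.95, 7.30 and 7.01 in the wild types, so it was at 7.01 or above on all 5 arrays and led by 0.65 on wild type 1. Dmkn, dermokine, which lies between Sbsn and Krtdap, read 5.55 and 5.52 in the knockouts and 5.95, 5.48 and 5.26 in the wild types. Krtdap thus spanned a wider range over the arrays than Sbsn and Dmkn beside it. The neighbours of Wfdc21 on its chromosome, the whey acidic protein genes Wfdc18 and Wfdc17, were spread less: Wfdc18 ranged from 8.05 to 8.55 and was highest on wild type 1, and Wfdc17 ranged from 4.84 to 5.44 and was highest on wild type 2.

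Dsg1a, a desmosomal cadherin of the upper epidermis, was the exception among the 10. It read 4.04 and 3.82 in the knockouts and 3.98, 4.46 and 3.95 in the wild types, so its highest array was wild type 2 and wild type 1 lay inside the range of the others. Its close copies Dsg1b (3.25 to 3.42) and Dsg1c (2.81 to 3.12) spanned 0.31 or less over the 5 arrays, and cross-hybridisation between such copies was not tested. Calml3, a calmodulin-like protein of epithelial cells, read 3.36 in both knockouts and 3.92, 3.21 and 3.36 in the wild types. Wild type 1 led by 0.57 and wild type 2 was lowest.

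**Figure D1:**
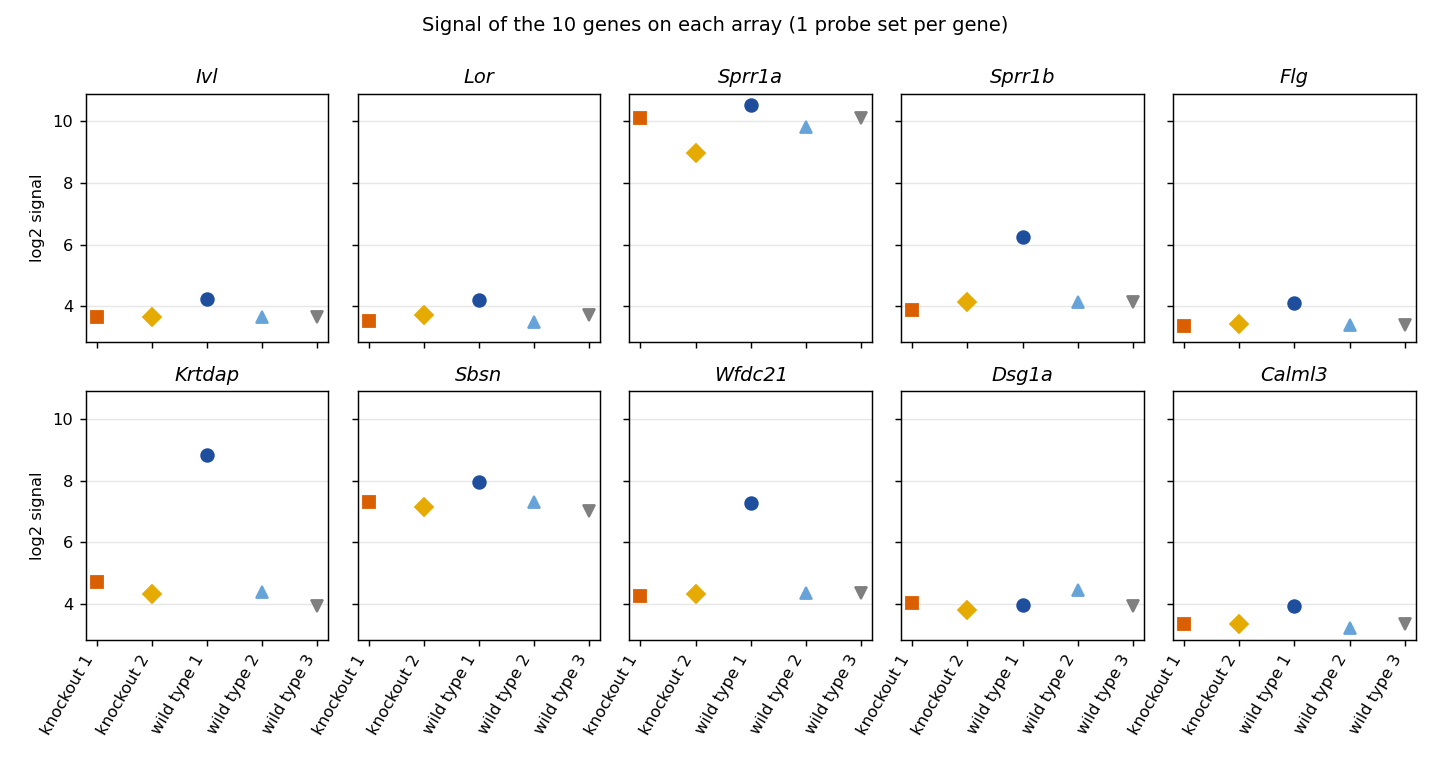
Log2 signal of each of the 10 genes (y axis, shared) on the 5 arrays (x axis, 1 symbol per array, 1 probe set per gene). Wild type 1 is highest for 9 genes and reaches 8.83 for Krtdap, 7.29 for Wfdc21 and 6.25 for Sprr1b, while Sprr1a and Sbsn read high on all 5 arrays and Dsg1a is highest on wild type 2.

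For 6 of the 10 genes at least 2 arrays gave exactly equal values, as for 68.8% of all genes, so small gaps between arrays rest on few distinct values. Among the 4 arrays other than wild type 1, the median range of a gene was 0.23 for the 10 and 0.18 for all genes. Sprr1a (1.12), Krtdap (0.80) and Dsg1a (0.64) varied most among these 4 arrays and Ivl (0.00) least.

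The neighbours in the epidermal differentiation complex were read in chromosomal order. The RefSeq table of GRCm38.p6 places 58 protein-coding genes from S100a9 to S100a11, of which 49 were measured, 5 of them among the 10 genes. Of the 44 others, 24 (54.5%) read highest on wild type 1, against 15.5% of all genes, some by little, such as Crnn by 0.04. Of the 44, 6 led there by 1 log2 unit or more, against 0.14% of all genes. These were the late cornified envelope genes Lce1f, Lce3f and Lce3d, the small proline-rich genes Sprr2e and Sprr2d, and hornerin (Hrnr), a filaggrin relative. Lce1f read 3.68 and 3.60 in the knockouts and 6.93, 3.58 and 3.68 in the wild types, and Lce3f read 2.29 and 2.38 against 5.58, 2.26 and 2.29. On both the other 4 arrays lay close together. High values on wild type 1 were not continuous along the complex: Lce1b (2.79 to 2.89), Sprr3 (2.35 to 2.40) and Crnn (3.10 to 3.18) had narrow ranges between genes with wide ones. S100a11, a calcium-binding protein made in many cell types, read 10.8 to 10.9 on all arrays. Sprr2 and Lce genes are families of close copies, so their assignment to single genes is uncertain. High epidermal signals on wild type 1 were known before these genes were counted, so nothing is read from the shares.

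**Figure D2:**
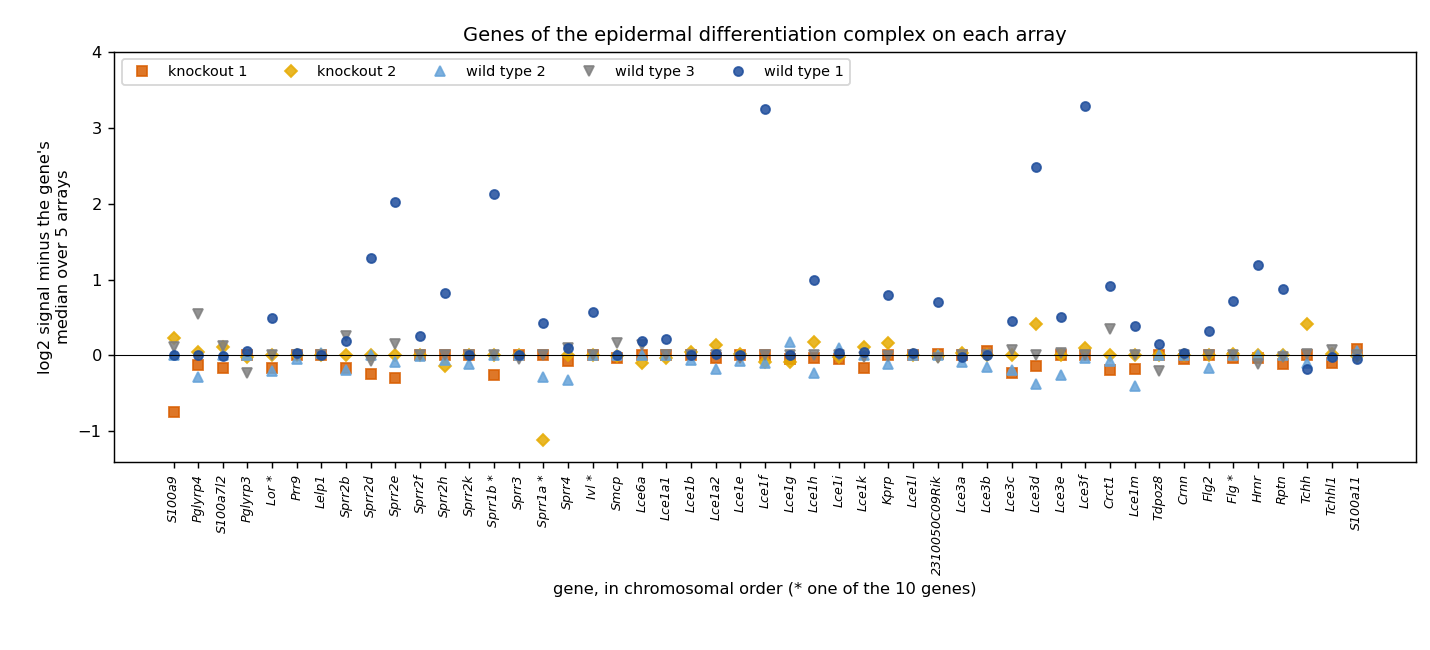
Log2 signal of 49 genes of the epidermal differentiation complex minus the median of each gene over the 5 arrays (y axis), in chromosomal order (x axis), with 1 symbol per array and the 5 described genes starred. Wild type 1 lies above the other arrays at scattered genes, up to 3.28 for Lce3f, with genes between them at about 0; knockout 2 lies 1.12 below the median for Sprr1a.

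The keratins that mark the spinous layer read high on wild type 1. Krt10 read 5.45 and 5.50 in the knockouts and 8.54, 5.34 and 5.45 in the wild types, and Krt1, its partner, read 4.14 and 4.26 against 6.94, 4.36 and 4.36. Wild type 1 was 8.21-fold above the next array for Krt10 and 5.99-fold for Krt1. Krt2, a keratin of the granular layer, ranged only from 3.03 to 3.26 and was lowest on wild type 1, and Krt77 ranged from 3.31 to 3.45. Of 6 suprabasal keratins 3 read highest on wild type 1 (15.5% of all genes did). The mean signal of the 6 was 4.84 and 4.85 in the knockouts and 5.85, 4.81 and 4.97 in the wild types.

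Of 39 other measured envelope proteins and transglutaminases, 22 (56.4%) read highest on wild type 1, against 15.5% of all genes. Their median lead over the median of the other arrays was 0.23, and 6 led by 1 log2 unit or more (0.14% of all genes). Of 29 proteases, inhibitors and lipid enzymes of the barrier, 15 (51.7%) read highest there, with a median lead of 0.17. Of these 29, 3 led by 1 log2 unit or more. Spink5, an inhibitor of epidermal kallikreins, led by 1.34, the serpin Serpinb3a by 1.31 and the skin aspartic protease Asprv1 by 1.11. Tgm1, the transglutaminase of the envelope, ranged from 5.70 to 6.07 and was highest on wild type 3. Calm4, a calmodulin-like skin protein, read 5.79 on wild type 1 and 3.80 to 3.88 on the other arrays. Krt6b, a keratin of activated epidermis, led by 1.03, while the related Krt6a led by 0.27 with signals of 8.52 or more on all arrays. Of the transcription factors of epidermal differentiation, 2 of 15 read highest on wild type 1 (13.3%), and Klf4 ranged from 7.73 to 8.05. The lists were chosen with earlier results of these data known, so nothing is read from these counts.

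Other structures of skin were counted in the same way. Among 24 hair shaft and inner root sheath genes 3 read highest on wild type 1 (12.5%, against 15.5% of all genes). Among 8 sebaceous gland genes 1 did, among 8 melanocyte genes 1 and among 15 skeletal muscle genes 5. None of these genes led there by 1 log2 unit. Of the 8 melanocyte genes 4 read highest on knockout 2 (21.4% of all genes did). Mlana, a melanosome protein, led there by 1.08, with 4.52 and 5.60 in the knockouts and 3.86, 4.05 and 4.31 in the wild types. Wild type 1 was its lowest array. Its groups did not overlap, higher in the knockout, which held for 1 of the 8 genes (2.63% of all genes). None of the 8 was called by limma. Their largest lead of wild type 1 over the median of the other arrays was 0.24 for hair (Krt71), 0.18 for the sebaceous gland (Awat1), 0.13 for melanocytes and 0.32 for muscle. Basal genes that skin and mammary myoepithelium share stood at a median of -0.02 relative to the other arrays.

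Markers of other cells moved on the same array. Of 12 measured lymphocyte genes, 8 (66.7%) read highest on wild type 1, against 15.5% of all genes. The mean signal of the 12 was 4.38 and 4.37 in the knockouts and 4.92, 4.60 and 4.43 in the wild types. All 12 had a lower mean in the knockout (49.5% of all genes), and 10 did without wild type 1 (48.7%). For 5 the groups did not overlap, lower in the knockout (2.8% of all genes), and for 5 without wild type 1 (4.68%). None was called by limma. Ptprc, the pan-leukocyte phosphatase CD45, read 5.34 and 5.03 in the knockouts and 6.73, 5.87 and 5.34 in the wild types. Cd3e, a CD3 subunit of the T cell receptor complex, read 4.15 and 4.63 against 5.44, 4.63 and 4.63. The B cell gene Cd79a stood between 4.56 and 4.71 and shared its highest value among all wild types. None of 11 fibroblast and none of 9 myoepithelial genes read highest on wild type 1, where their medians lay at -0.35 and -0.34 relative to the other arrays. Of the 13 luminal genes 6 read highest on wild type 1 (46.2%), with a median of 0.00. The log2 scale has no zero, so no marker can be called absent, and the part of these cells in the values of the 10 genes was not tested.

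**Figure D3:**
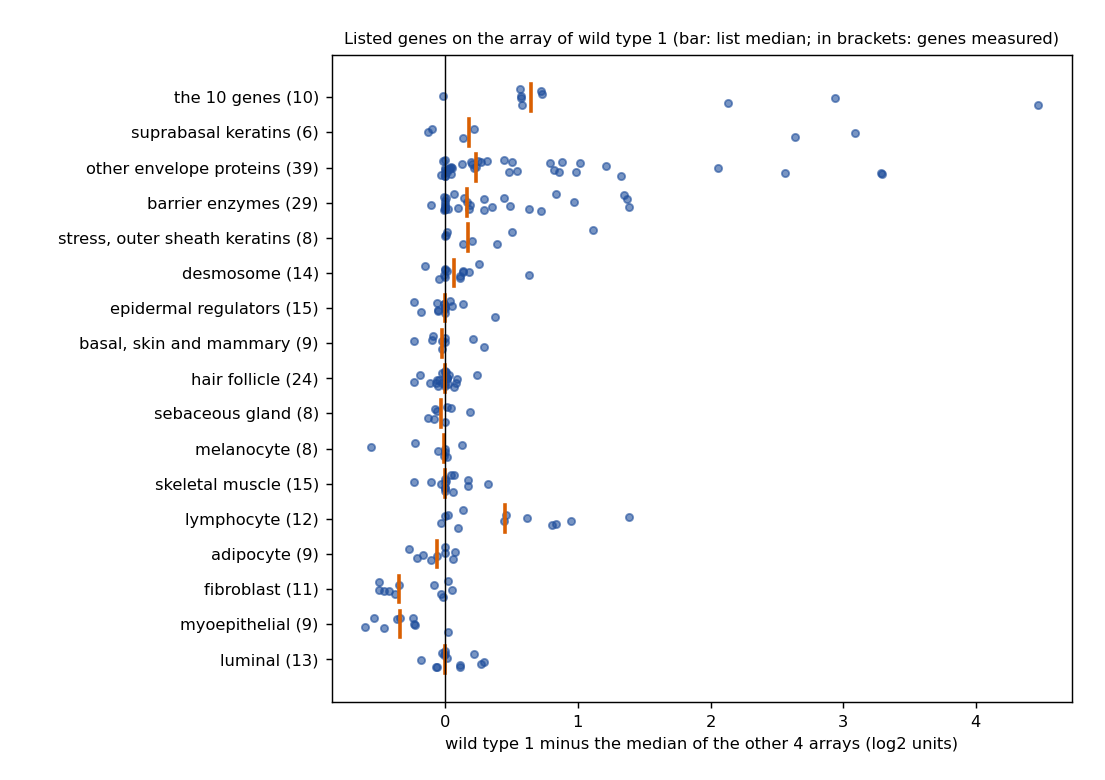
Each point is a measured gene of a list (y axis, number of genes in brackets), placed at its signal on wild type 1 minus the median of the other 4 arrays in log2 units (x axis, points spread vertically at random within a list); the bar is the list median. The 10 genes have a median of 0.65, lymphocyte genes 0.45, hair follicle genes 0.00 and fibroblast genes -0.35.

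The whole table held 31 genes that led on wild type 1 by 1 log2 unit or more, 12 that did so on knockout 2, 3 on wild type 2 and none on knockout 1 or wild type 3. Of the 31, 3 are among the 10 genes, 13 are in the lists above and 15 in neither; these 15 are named after their values were seen. The largest were the stefins Stfa3 and Stfa1, cysteine protease inhibitors of skin and myeloid cells, at 9.87 and 8.23 on wild type 1 against at most 6.44 and 5.20 elsewhere. The related Cstdc6 and Csta3, the secreted keratinocyte protein Slurp1 (2.00 above the next array), the cytokine Il1f9 and the keratin Krt13 also led. Cd3g, a CD3 subunit of the T cell receptor complex, read 5.66 against at most 4.25. The receptor segment Trav9d-3 and Ms4a6b, Ptpn22 and Fyb, which several kinds of leukocyte express, were also in the set, while none of the 12 listed lymphocyte genes led by 1 log2 unit. Olfm4, a glycoprotein of neutrophils and mucosa, Prol1 and Pate11 completed the set. The gap of the last gene inside this set was 1.03 (Krt6b), and that of the first outside it was 0.99 (Aoc1).

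The genes most like the 10 were ranked by the root mean square distance of their 5 centred values from the median profile of the 10, among 416 candidate genes with a range of at least 1 log2 unit. That profile was 0.59 on wild type 1 and between -0.22 and -0.13 on the other arrays. The closest was Defb14, a beta-defensin of epithelia, at a distance of 0.10, with 3.36 and 3.33 in the knockouts and 4.39, 3.44 and 3.43 in the wild types. The CD3 subunit Cd3d (0.11), Pdk1 (0.12), Them5 (0.13), Epsti1 (0.14), the lymphoid factor Ikzf1 (0.15) and cornifelin, Cnfn (0.15), came next. Cst6 (0.16), Ctse (0.16), Ms4a6c (0.16), Bcl2a1a (0.18) and Krt13 (0.18) completed the 12.

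The median genotype difference of the 10 genes depends on wild type 1, as do the differences of Krtdap, Wfdc21 and Sprr1b given below. This does not hold for every gene. Dsg1a stood at -0.20 with all 5 arrays and at -0.28 without wild type 1, and Sprr1a moved more without knockout 2, as given below. All 10 had a lower mean in the knockout, as 49.5% of all genes did, with a median of -0.23 beside 0.00 for all genes. Krtdap averaged 4.52 ± 0.29 over the knockouts and 5.72 ± 2.70 over the wild types (SD, n = 2 and n = 3), Wfdc21 was 4.30 ± 0.04 against 5.34 ± 1.69 and Sprr1b was 4.00 ± 0.18 against 4.83 ± 1.23. None of the 10 was called by limma at an adjusted p of 0.05, where 0% of all genes were, and none had an unadjusted p under 0.05, where 1.3% did. The groups did not overlap for 1 of the 10, Wfdc21, lower in the knockout (2.8% of all genes), and for none with the knockout higher (2.63%). Since the choice of the genes used wild type 1, nothing is read from these counts.

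Without wild type 1, leaving 2 arrays per genotype, 5 of the 10 had a lower mean in the knockout, 4 a higher one and Ivl the same value, with a median of -0.0061. Of all genes 48.7% were lower. None of the 10 was called by limma (0% of all genes), and none had an unadjusted p under 0.05 (1.31%). Krtdap turned to 0.36 ± 0.27 (SE; limma adjusted p = 0.917), and Sprr1b stood at -0.13 ± 0.11 (adjusted p = 0.917). Wfdc21 stood at -0.07 ± 0.03 (adjusted p = 0.917) with groups that did not overlap, at 4.27 and 4.33 against 4.37 and 4.37, as for 4.68% of all genes in this direction; none of the 10 separated the other way (4.33%). Sprr1a stood at -0.42 ± 0.50 (adjusted p = 0.919), with its lowest value on knockout 2. With all 5 arrays Sprr1a stood at -0.61 ± 0.44 (adjusted p = 0.919), which was -0.05 without knockout 2 and -1.17 without knockout 1.

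**Figure D4:**
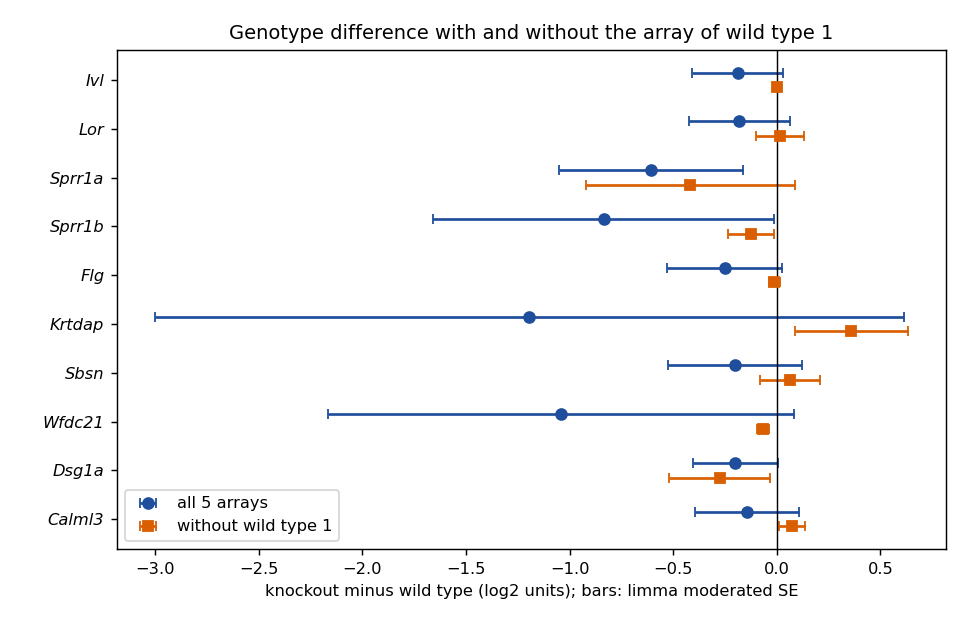
Knockout minus wild-type difference of each of the 10 genes in log2 units (x axis), with limma's moderated SE as bars, from all 5 arrays (circles, n = 2 and n = 3) and without wild type 1 (squares, n = 2 and n = 2). With all arrays Krtdap lies at -1.19, Wfdc21 at -1.04 and Sprr1b at -0.84; without wild type 1 they lie at 0.36, -0.07 and -0.13.

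The array numbers in the labels fall into 2 runs, knockout 1 with wild type 1 and 2, and wild type 3 with knockout 2. What a run stands for is not stated. Wild type 2 and knockout 1, of the same run as wild type 1, read 4.40 and 4.73 for Krtdap and 4.12 and 3.87 for Sprr1b, so the high values were not shared within the run. The median difference of the 10 genes was -0.32 within the first run, 0.0017 there without wild type 1, and 0.00 in the second run, each of the last 2 from 1 array per genotype.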

How the data were processed

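Total RNA (10 ng) of mammary epithelial cells from 2 knockout and 3 wild-type samples was hybridised to Affymetrix arrays, per the labels' protocols. The authors deposited 1 log2 signal for each probe set. The tools listed in the submitters' processing notes are RMA and limma, with no role or version. For the array library files and genome build the sources used here name nothing. Of 41345 probe sets, 23521 carry 1 gene symbol, 1814 several and 16010 none; only the first were used, with the highest mean over the 5 arrays for the 1082 genes that have several, which left 22180 genes. The values were not normalised again. Of 276 listed genes 252 were measured.

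The genotype difference (knockout minus wild type) came from limma 3.58.1 under R 4.3.3 (lmFit, eBayes, two-sided, no covariate, Benjamini-Hochberg adjustment over all 22180 genes, threshold 0.05) on all 5 arrays and again without wild type 1. The fit was tested on simulated data. Leads on an array, lists and promoters are counts and medians with no test. Alternatives were quantile normalisation, median centring, a filter on dim genes (mean signal below percentile 40), averaging probe sets, leaving out each array, blocks for the replicate number and the array run, an intensity trend, array weights and all probe sets. The number of arrays limits the precision. Fold changes are powers of 2 of log2 differences and, since signals near background are compressed, may understate RNA ratios.

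The 10 genes and the lists were chosen with earlier results of these data known. The genes named are the 10, listed genes that lead on an array by 1 log2 unit or more, up to 4 bright genes of other lists, Mmp14, and the 12 nearest to the median profile of the 10 (numbered gene models, small RNAs, olfactory receptors and antigen receptor segments left out). Genes named outside this rule (Krt2, Krt77, Dmkn, Dsg1b, Dsg1c, Krt71, Awat1, Cd79a, Lce1b, Sprr3, Crnn, S100a9, S100a11, Klk11, Aoc1 and the 15 unlisted genes of wild type 1) were chosen after their values were seen. Protein sequences were not analysed here.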

Additional observations from a re-analysis of the deposited data

How the results depend on the processing

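Under quantile normalisation, median centring, averaged probe sets and the loss of any array but wild type 1, 9 of the 10 genes stayed highest on wild type 1, with a median gap to the next array of 0.61 as deposited and between 0.59 and 0.61 otherwise; without that array the count has no meaning. Leaving out dim genes kept 6 of the 10, of which 5 were highest there, and moved their median gap to 1.39 and their median genotype difference from -0.23 to -0.72. That median was between -0.39 and -0.0061 with 1 array left out, and 0.0017 within the first run without wild type 1, a restriction chosen after seeing the data. No gene of the table was called with all 5 arrays under any alternative; leaving out 1 array gave 0 to 1757 called genes, with 1757 without knockout 1 and 835 without knockout 2, where the lone knockout array is assumed to vary like the wild types. The smallest adjusted p of any of the 10 genes was 0.313 over the fits by limma and 0.856 over those with all 5 arrays. With 1 array left out the differences ran from -0.33 to 0.016 for Lor, -2.09 to 0.36 for Krtdap, -0.40 to 0.063 for Sbsn, -0.28 to 0.071 for Calml3, -1.17 (without knockout 1) to -0.05 (without knockout 2) for Sprr1a and -0.31 to -0.036 for Dsg1a (without wild type 2). Signs turned without wild type 1 for Lor (0.016), Krtdap (0.36), Sbsn (0.063) and Calml3 (0.071), and within the second run for Flg (0.015), Krtdap (0.39) and Sbsn (0.12); the cause beyond the array left out was not tested. A block for the replicate number gave a median difference of -0.39 and no called gene. Same-numbered samples deviated from their group means with correlations over genes of 0.245 (number 1) and -0.044 (number 2). The samples of number 1 also share a run of array numbers. With 2 knockouts the deviations of one mirror those of the other, so these values cannot show whether the numbers pair the samples. Signal over background limits the 8 genes that read under 5 on most arrays.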

Other observations

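Some barrier genes and keratins of the lists had their lowest value on knockout 2; they were chosen after their values were seen. Klk10, a kallikrein protease, read 9.88 and 7.52 in the knockouts and 9.49, 9.38 and 7.94 in the wild types, so its 2 lowest values are those of the second run of array numbers. Klk11, a related protease, read 5.58 and 4.35 in the knockouts and 5.30, 5.19 and 5.05 in the wild types. Krt6a read 9.37 and 8.52 against 9.64, 9.19 and 9.30. All 3 genes were lowest on knockout 2, as Sprr1a was, and overlapped between the genotypes.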
